A study of Mus musculus with 8 samples.

Results

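Cluster 3 is one of the 10 cell clusters that the authors deposited for double-negative (DN) thymocytes, which lack both CD4 and CD8 at the surface. Its members were taken as every cell whose deposited coarse cluster number is 3, in all libraries, and number 1243 of 10237 cells. The working name of the cluster describes cycling cells past β-selection that express Cd8b1, with Cd8b1, Hells and Ccnb1ip1 as its markers. The cells came from mice with a GSK3B Ser389Ala knock-in (KI), which puts alanine in place of a serine of the kinase GSK3β that can be phosphorylated, and from wild-type (WT) C57BL/6J mice. Magnetic depletion removed cells that carried CD4, CD8, CD11b, MHC class II or the kappa light chain, and the rest were sorted into CD44- CD25+ DN3 cells and CD44- CD25- DN4 cells, and 5′ single-cell expression and T cell receptor libraries were made. Each of the 4 groups (KI DN4, WT DN4, KI DN3, WT DN3) had 1 expression library and 1 receptor library. The number of mice, their age, any pooling and how the knock-in was made are not given in the sources used here.

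Thymocytes rearrange the T cell receptor β chain gene at the DN3 stage. A cell with a working β chain pairs it with the invariant pre-T α chain (Ptcra), and the signal of this pre-T cell receptor, together with Notch ligands and IL-7, lets the cell survive, lose CD25, divide rapidly and begin to express CD8 and CD4. This step is β-selection. The α chain gene is rearranged later, when the cells have become double positive for CD4 and CD8 and have left the cycle.

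Cluster 3 held 767 KI DN4, 242 WT DN4, 138 KI DN3 and 96 WT DN3 cells, which were 29.8%, 16.4%, 4.18% and 3.33% of the cells of their libraries. These shares are not compared between genotypes, because genes that help define the cluster differ between the libraries. Its cells were large in RNA content, with a median per cell of 18095, 18637, 17428 and 18714 UMIs (unique molecular identifiers, each standing for 1 captured RNA molecule) in the same order of libraries, and 13858137, 4513919, 2472440 and 1796444 UMIs in all. Doublet calls marked 37 of the 1243 cells. Of the 10182 distinct cell barcodes in the series, 54 occurred in more than 1 library and 11 of these belonged to a cluster 3 cell, but none joined cluster 3 cells of 2 libraries. Genotypes and stages were each compared between single libraries, so these comparisons have no test. All intervals below are 95% intervals of counting error only, Poisson for ratios of summed UMIs and Clopper-Pearson for shares of cells, and genotype, library and mouse cannot be told apart.

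The label was first checked against its markers. Cd8b1, on chromosome 6 at 71322788 to 71337494 of mm10, encodes the β chain of the CD8 coreceptor. Its UMIs summed over the cluster came to 191 and 264 CPM (counts per 1000000 UMIs) in KI DN4 and WT DN4, and to 19.4 and 23.4 CPM in KI DN3 and WT DN3. Both DN4 libraries were thus far above both DN3 libraries. With every cell thinned to 4000 UMIs, 42.1% of KI DN4 and 57.1% of WT DN4 cells of cluster 3 had a Cd8b1 UMI, against 7.25% of KI DN3 and 7.29% of WT DN3 cells. The unthinned shares were 75.1%, 87.2%, 17.4% and 25%. The same thinned share was 2.68% in KI DN4 and 2.67% in WT DN4 cells of cluster 5, whose cells mostly carry a complete αβ receptor, and it was 0.347% in KI DN3 cells of cluster 0 (interval 0.127% to 0.753%) and 0.159% in WT DN3 cells of cluster 1 (0.0329% to 0.465%), which hold most cells of those libraries. Median depths were 18128 UMIs in cluster 3, 4089 in cluster 5, 4865 in cluster 0 of KI DN3 and 5524.5 in cluster 1 of WT DN3. The intervals of the DN3 cells of cluster 3, from 3.53% to 12.9% in KI and from 2.98% to 14.4% in WT, lay above those of these DN3 clusters and far below the DN4 cells of cluster 3. The name Cd8b1-positive therefore holds for most DN4 cells of the cluster by the unthinned shares, and not for most of its DN3 cells. Cluster 4 had the same order, with thinned shares of 38.7%, 44%, 3.75% and 2.82% in KI DN4, WT DN4, KI DN3 and WT DN3. Cd8a, the other chain of CD8, was at 14 and 18.2 CPM in KI DN4 and WT DN4 and at 1.21 and 1.67 CPM in KI DN3 and WT DN3, and Cd4 stayed at or below 2.22 CPM in every library.

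Hells (chromosome 19, 38930915 to 38971051), a chromatin remodeller that helps to maintain DNA methylation in dividing cells, was high throughout cluster 3, at 253, 186, 165 and 177 CPM in KI DN4, WT DN4, KI DN3 and WT DN3. Ccnb1ip1 (chromosome 14, 50789248 to 50807732), a ubiquitin ligase known for its part in meiotic crossovers, was at 77.4, 26.6, 4.85 and 49.0 CPM in the same order. A UMI was found in 427 of 767 KI DN4 cells and in 9 of 138 KI DN3 cells. In cluster 4 the levels were 63.1, 14.2, 7.10 and 7.80 CPM, and 231 of 393 KI DN4 cells (58.8%) had a UMI against 55.7% in cluster 3. Of its 88 UMIs in WT DN3, 30 came from 1 cell, and the level without that cell was 32.8 CPM.

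Markers of other cell types were summed over each list. Of 12 measured NK and innate lymphoid markers, Ccl5, Klrd1, Gzmb and Klrk1 had 0 UMIs in every library, and the summed level of the list, 909, 1178, 914 and 1000 CPM in KI DN4, WT DN4, KI DN3 and WT DN3, was almost entirely Gzma, a granzyme, at 899, 1162, 895 and 977 CPM. The 12 γδ T cell markers summed to 309 and 394 CPM in KI DN4 and WT DN4 and to 648 and 675 CPM in KI DN3 and WT DN3, against 2004 and 2525 CPM in the KI DN4 and WT DN4 cells of cluster 2, and Il23r was at 0 in all libraries of cluster 3. Markers of mature αβ T cells summed to at most 208 CPM, myeloid and dendritic markers to at most 110 CPM, stromal markers to at most 65.1 CPM and erythroid markers to at most 1.11 CPM. The 4 measured B cell markers summed to 364, 418, 324 and 298 CPM in KI DN4, WT DN4, KI DN3 and WT DN3 of cluster 3, to 354, 375, 229 and 233 CPM in cluster 4 and to 137 and 156 CPM in KI DN4 and WT DN4 of cluster 5. Most of it was Ighm, the heavy chain constant region, at 347, 396, 299 and 261 CPM in cluster 3. Of the B cell receptor markers Cd79a and Cd79b, Cd79a was at or below 0.144 CPM. Cd79b was detected, at 15.3 CPM in KI DN4 and 19.1 CPM in WT DN4 among the S-called cells of cluster 3. The part of these markers in the results was not tested.

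Whether cluster 3 cells had the productive β chain that β-selection requires can be read from the receptor libraries, which were sequenced apart from the expression libraries. Such a chain does not by itself show that selection was passed. A productive β chain contig (TRB) was found in 726 of 767 KI DN4, 225 of 242 WT DN4, 120 of 138 KI DN3 and 85 of 96 WT DN3 cells, or 94.7%, 92.98%, 87.0% and 88.5%. Cluster 4, the other cycling cluster with at least 50 cells in each of the 4 libraries, gave 95.4%, 97.2%, 82.4% and 83.6%. Cluster 7 also had only S and G2M calls, but it held just 22 WT DN4, 7 KI DN3 and 7 WT DN3 cells. The difference between clusters 3 and 4 averaged 1.13 percentage points (SD 4.43, n = 4 libraries) and was positive in 2 of 4 libraries (two-sided exact sign-flip permutation test, p = 0.75, Benjamini-Hochberg adjusted over the 2 chains p = 1; with 4 libraries no p below 1 in 8 is possible). Its direction rested on single libraries, since it was -0.0092 points without KI DN3 and -0.155 points without WT DN3. In cluster 6, a smaller DN3 cluster, 68.3% of KI DN3 and 71.2% of WT DN3 cells had a productive TRB, and in clusters 0 and 1, which hold most DN3 cells, the DN3 shares lay between 3.67% and 7.04%. Cluster 3 thus stood with cluster 4 and far above clusters 0 and 1 in its share of cells with a β chain.

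A productive α chain contig (TRA) was rare in cluster 3. It was found in 8 KI DN4 cells (1.04%), 6 WT DN4 cells (2.48%) and 0 cells of KI DN3 and WT DN3, which at 3 counts allows shares of up to 2.17% in KI DN3 and 3.13% in WT DN3, with upper Clopper-Pearson limits of 2.64% and 3.77%. In cluster 4 the shares were 1.27%, 1.59%, 0.288% and 0% in KI DN4, WT DN4, KI DN3 and WT DN3, and the mean difference of 0.092 percentage points (SD 0.544, n = 4 libraries, positive in 1 of 4) gave p = 1 in the same exact permutation test, adjusted p = 1. It was -0.173 points without WT DN4 and -0.394 points without the cells called doublets. In cluster 5 the same chain was found in 80.8% of KI DN4 and 83.02% of WT DN4 cells. All 14 cluster 3 cells with a productive TRA also had a productive TRB, and 1 of them had the deposited phase call G1.

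**Figure D1:**
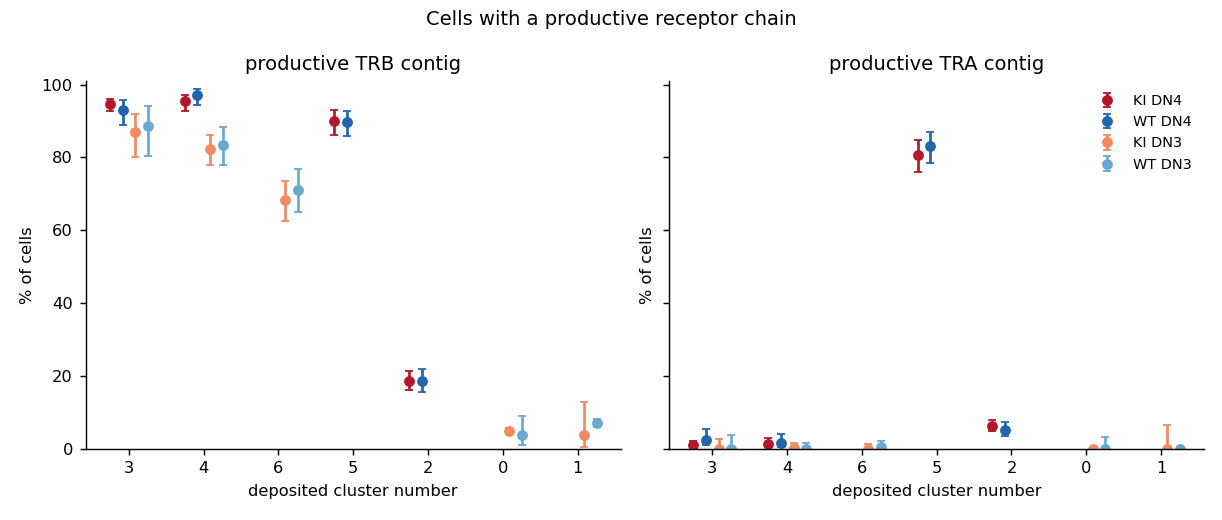
Percentage of cells with a productive TRB contig (left) and a productive TRA contig (right) in each deposited cluster, for groups of at least 50 cells; points are libraries and bars are 95% Clopper-Pearson intervals. Cluster 3 lies between 87.0% and 94.7% for TRB and at or below 2.48% for TRA, while cluster 5 is above 80% for both chains.

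Many cluster 3 cells carried further β chain products. A nonproductive TRB contig accompanied 88.8%, 86.0%, 77.5% and 77.1% of the cells in KI DN4, WT DN4, KI DN3 and WT DN3, and 7.04%, 5.79%, 2.90% and 6.25% had 2 productive β chains. The repertoire was broad: 762, 235, 124 and 91 distinct productive β chain sequences were read in the cluster. In KI DN4 the V segments seen most often were TRBV12-2+TRBV13-2, as the contig annotation writes it, with 10.7% of cells with a TRB (interval 8.59% to 13.2%), and TRBV12-1 with 10.1% (7.96% to 12.5%). In WT DN4 TRBV12-1 led with 12% (8.06% to 16.98%) and TRBV12-2+TRBV13-2 had 8% (4.81% to 12.3%). The intervals of the genotypes overlapped for both segments.

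Only captured cells can be counted, so the size that clones had in the mice cannot be read from these libraries and was not tested. Among the captured cells of cluster 3, 7 productive β chains were shared by more than 1 cell of a library, each by 2 cells, all in DN4. Their junctions are shown because a shared junction can tag cells of the same origin. Whether the cells of a pair descend from 1 cell was not tested, and stray contigs or doublets were not excluded. Each junction is read from the conserved cysteine codon to the conserved phenylalanine codon of the rearranged gene on chromosome 6, with no part in capitals.
KI DN4 TRBV12-1 TRBJ2-3: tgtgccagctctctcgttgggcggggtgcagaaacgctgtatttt
KI DN4 TRBV12-2+TRBV13-2 TRBJ1-3: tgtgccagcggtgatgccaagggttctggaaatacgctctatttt
KI DN4 TRBV12-2+TRBV13-2 TRBJ2-2: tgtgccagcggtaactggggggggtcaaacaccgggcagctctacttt
KI DN4 TRBV16 TRBJ2-4: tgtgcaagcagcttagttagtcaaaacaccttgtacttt
KI DN4 TRBV17 TRBJ2-5: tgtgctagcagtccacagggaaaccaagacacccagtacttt
WT DN4 TRBV2 TRBJ2-2: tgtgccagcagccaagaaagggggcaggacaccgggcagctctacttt
WT DN4 TRBV23 TRBJ2-4: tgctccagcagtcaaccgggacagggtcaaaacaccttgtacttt
In 3 of these pairs both cells lay in cluster 3, with an S phase call for each. In 2 pairs, TRBV12-2+TRBV13-2 with TRBJ2-2 and TRBV17 with TRBJ2-5, 1 cell lay in cluster 3 and the other in cluster 4, and both cells had a G2M call. The remaining partners lay in cluster 5 and in cluster 0. The contigs of these cells rested on 3 to 254 UMIs, so that a few of them are thin.

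The main question was how cluster 3 differs from cluster 4. Both clusters were made by clustering the same expression values, so the following differences describe them and carry no test. Cluster 3 held more S phase calls than cluster 4. In the deposited calls, 83.2% of KI DN4, 73.1% of WT DN4, 83.3% of KI DN3 and 86.5% of WT DN3 cells of cluster 3 were in S, against 41.5%, 62.55%, 55.9% and 61.0% of cluster 4. The difference averaged 26.3 percentage points (SD 12.7, n = 4 libraries) and was positive in all 4, at 41.7, 10.6, 27.4 and 25.4 points. G2M calls made up 13.95%, 16.9%, 16.7% and 12.5% of cluster 3 and 58.5%, 37.45%, 44.1% and 39.0% of cluster 4. A G1 call was given to 22 KI DN4, 24 WT DN4, 0 KI DN3 and 1 WT DN3 cells of cluster 3 and to no cell of cluster 4.

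**Figure D2:**
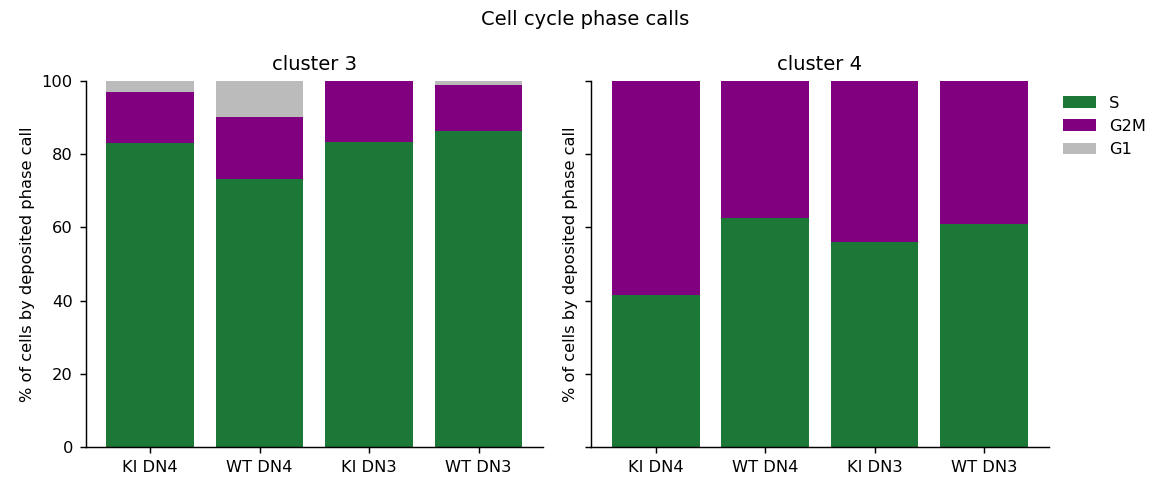
Deposited cell cycle phase calls as stacked percentages of cells, for cluster 3 (left) and cluster 4 (right) in each library. S calls make up 73.1% to 86.5% of cluster 3 and 41.5% to 62.55% of cluster 4, and of the 2 clusters only cluster 3 has G1 calls.

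Between the clusters 5223 genes averaged at least 20 CPM in one of them. Of these, 89 (1.7%) were at least 2-fold lower in cluster 3 in every library and 1 (0.0191%) was at least 2-fold higher. The 2 clusters thus shared most of their expression, and the median log2 ratio over all measured genes was -0.02. The 89 genes included 6 histone genes, whose reads can be shared between near-identical copies, and were led by genes of the mitotic spindle, the kinetochore and cell division. The 1 higher gene, Gm28285, is annotated as protein-coding, with no assigned name, and averaged 108 CPM in cluster 3 and 35.05 CPM in cluster 4 (mean log2 ratio 1.65).

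The mitosis list held 57 genes, of which 55 were measured. In cluster 3, 44 of them were 2-fold lower, 52 were lower in every library at any size (28.2% of all measured genes were), and the list's median log2 ratio was -2.07. Nusap1 (chromosome 2, 119618298 to 119651244), which binds and bundles spindle microtubules, was at 17.6, 7.09, 5.66 and 8.91 CPM in cluster 3 of KI DN4, WT DN4, KI DN3 and WT DN3, against 236, 157, 181 and 150 CPM in cluster 4. No library of cluster 3 came near any library of cluster 4, and the mean log2 ratio was -4.32 (SD 0.54, n = 4 libraries). Plk1 (chromosome 7, 122159439 to 122169873), the kinase that drives entry into and passage through mitosis, was at 24.0, 11.5, 12.5 and 17.3 CPM in cluster 3 and at 229, 145, 161 and 128 CPM in cluster 4 (mean log2 ratio -3.37, SD 0.38). Aurkb, the kinase of the chromosomal passenger complex, was at 42.9, 14.4, 18.6 and 12.8 CPM in cluster 3 and at 260, 176, 198 and 181 CPM in cluster 4 (-3.36, SD 0.53).

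Genes that act at several other steps of division shared this direction. Top2a, the topoisomerase that untangles replicated chromosomes, was at 188, 80.6, 87.4 and 47.9 CPM in cluster 3 and at 744, 560, 605 and 477 CPM in cluster 4 (mean log2 ratio -2.72, SD 0.55). Esco2, an acetyltransferase that fixes cohesin on replicated DNA, was at 29.3, 6.20, 6.47 and 4.45 CPM in cluster 3 and at 126, 96.9, 88.1 and 80.5 CPM in cluster 4 (-3.50, SD 0.95). The other genes with the lowest mean log2 ratios were Mxd3 (-3.69), a partner of MAX in the MYC network, Spc25 (-3.38) of the kinetochore, Ccnf (-3.24), the cyclin of an SCF ubiquitin ligase, Prc1 (-3.07) and Kif11 (-2.98) of the spindle, Ube2c (-3.04) of the anaphase-promoting complex pathway, Anln (-2.83) of the cleavage furrow, and Arhgef39 (-2.82), an exchange factor for small GTPases. Mki67, the proliferation marker, was also lower in cluster 3, at 78.9, 55.4, 48.5 and 44.5 CPM against 314, 278, 277 and 258 CPM in cluster 4.

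A pair of members of the mitosis list went the other way. Ccnb2 (chromosome 9, 70407692 to 70421547), a B-type cyclin that activates Cdk1, was at 214, 270, 220 and 224 CPM in cluster 3 of KI DN4, WT DN4, KI DN3 and WT DN3 and at 200, 158, 175 and 145 CPM in cluster 4. It was higher in cluster 3 in all 4 libraries, by 0.46 on the log2 scale on average (SD 0.30). Cenpa, the histone variant that marks centromeres, was at 168, 223, 184 and 170 CPM in cluster 3 and at 185, 122, 172 and 127 CPM in cluster 4, higher in 3 of 4 libraries (mean log2 ratio 0.31, SD 0.44). Ccnb1, the other mitotic B-type cyclin, was lower in every library (mean log2 ratio -1.43), and so was their kinase partner Cdk1 (-2.35).

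The contrast was wider among cells of the same phase call. In S-called cells Ccnb2 was at 180, 247, 177 and 189 CPM in cluster 3 and at 82.3, 75.4, 57.8 and 44.9 CPM in cluster 4. In the same cells Cenpa was at 128, 171, 132 and 123 CPM in cluster 3 and at 44.6, 29.5, 19.5 and 18.6 CPM in cluster 4. With S-called cells alone 3 genes were at least 2-fold higher in cluster 3 in every library, namely Ccnb2, Cenpa and Mxd4, and 59 were lower, 57 of them among the 89. In G2M-called cells Ccnb2 was at 439, 454, 426 and 451 CPM in cluster 3 and at 275, 283, 301 and 282 CPM in cluster 4. Ccnb2 and Cenpa RNA was therefore higher in cluster 3 within both phase calls, although the phase calls themselves rest on expression.

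**Figure D3:**
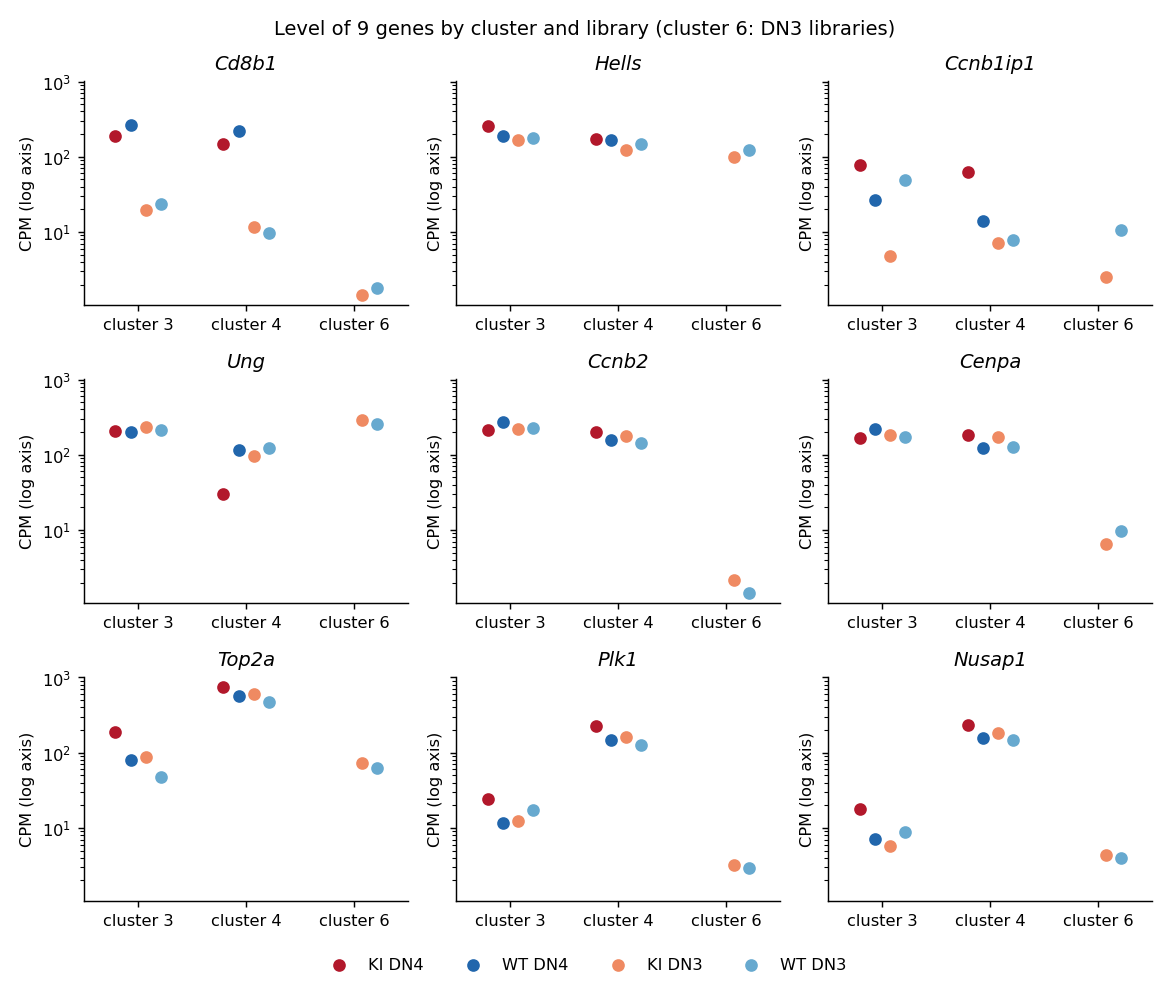
CPM (log axis) of 9 genes in clusters 3, 4 and 6, with 1 point per library and, for cluster 6, the DN3 libraries only. Top2a, Plk1 and Nusap1 are lower in cluster 3 than in cluster 4 in all libraries, Ccnb2 is higher in all, and Cd8b1 separates DN4 from DN3 libraries within each cluster.

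The replication list was close between the clusters. Of 53 genes 50 were measured, 1 (E2f8, a repressor of the E2F family, mean log2 ratio -2.02) was 2-fold lower, 7 were higher and 24 lower in every library, and the median log2 ratio was -0.29. Over all measured genes 20.8% were higher and 28.2% lower in every library. Ung, the uracil glycosylase that removes uracil from new DNA, stood highest in the list, at 210, 199, 237 and 215 CPM in cluster 3 against 29.9, 116, 97.1 and 125 CPM in cluster 4 (mean log2 ratio 1.42, SD 0.96). The spread came from cluster 4, where KI DN4 was far below the other libraries. The other genes higher in every library were small differences: Rfc3 (0.42) of the clamp loader, the helicase subunits Mcm4 (0.37), Mcm2 (0.31) and Mcm3 (0.18), Msh6 (0.33) of mismatch repair, and the marker Hells (0.34, SD 0.18). Enzymes that make nucleotides for DNA were lower in cluster 3 in every library. Rrm2, a subunit of ribonucleotide reductase, was at 457, 331, 293 and 214 CPM in cluster 3 and at 661, 737, 503 and 525 CPM in cluster 4 (-0.94), Tyms had a mean log2 ratio of -1.29 and Tk1 of -1.09.

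**Figure D4:**
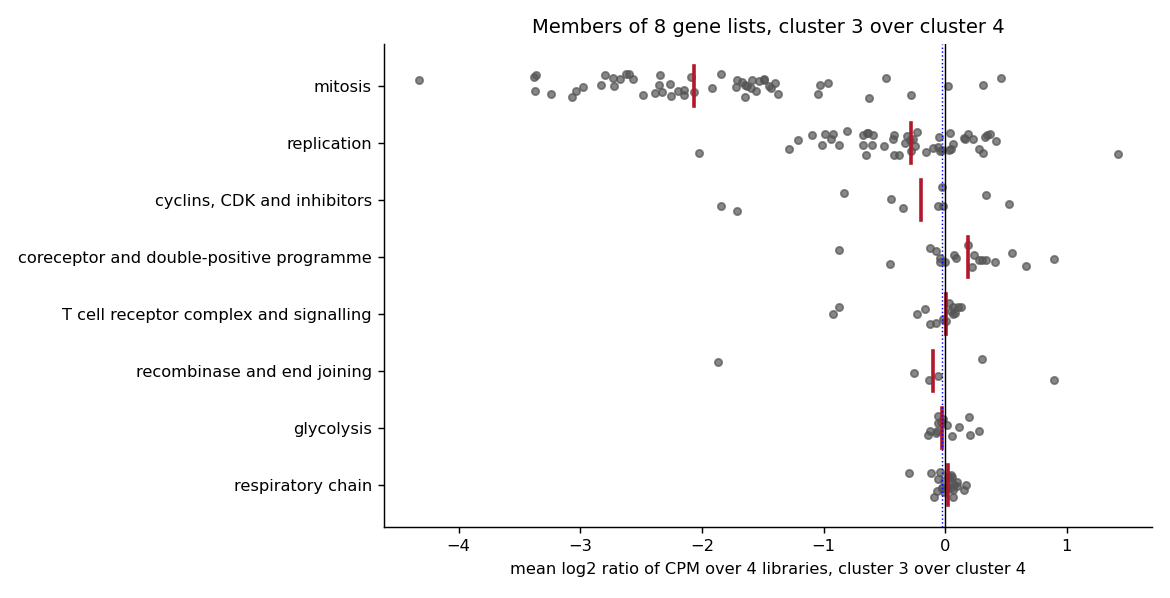
Mean log2 ratio of CPM over 4 libraries, cluster 3 over cluster 4, for each measured member of 8 gene lists; red bars are list medians and the dotted blue line is the median of all 5223 measured genes (-0.02). The mitosis list lies around -2.07, the replication list around -0.29 with Ung at 1.42, and the metabolic lists near 0.

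Of 10 measured cyclins, CDKs and inhibitors, 2 were 2-fold lower (1.7% of all genes), the CDK inhibitors Cdkn2c (mean log2 ratio -1.71) and Cdkn2d (-1.84), and 2 were higher and 5 lower in every library, with a median of -0.20. Of 5 measured γδ genes 3 were higher in every library (20.8% of all genes) and 0 lower, with a median of 0.32. The coreceptor and double-positive list had 19 measured genes, 5 higher and 3 lower in every library, with a median of 0.18. Cd8b1 itself was higher in cluster 3 in every library (mean log2 ratio 0.66, SD 0.45). It was at 191, 264, 19.4 and 23.4 CPM in cluster 3 and at 147, 217, 11.7 and 9.69 CPM in cluster 4. The ratios were larger in the DN3 libraries, where its level was low. In G2M-called cells Cd8b1 was lower in cluster 3 in WT DN4 (212 against 263 CPM) and KI DN3 (14.1 against 18.4 CPM). It was higher there in KI DN4 and WT DN3. Rag1, of the recombinase that cuts receptor genes, was also higher in every library, at 47.0, 77.1, 25.5 and 26.2 CPM in cluster 3 and at 28.4, 27.7, 15.4 and 16.9 CPM in cluster 4 (0.89, SD 0.39). Glycolysis (14 genes, median -0.03), the respiratory chain (24 genes, 0.03), the T cell receptor complex (15 genes, 0.00), growth and nutrient uptake (15 genes, 0.00) and GSK3 with β-catenin (6 genes, -0.04) had medians near 0. Gzma, Mxd4 and Pdcd4 were chosen after their values were seen. Gzma was at 899, 1162, 895 and 977 CPM in cluster 3 and at 591, 709, 598 and 617 CPM in cluster 4, and its log2 ratio hardly varied among libraries (0.64, SD 0.06). Mxd4, a MYC antagonist linked to the end of proliferation, averaged 46.4 CPM in cluster 3 and 19.6 CPM in cluster 4 (mean log2 ratio 1.17, SD 0.57), and Pdcd4, an inhibitor of translation, 62.0 CPM in cluster 3 and 32.2 CPM in cluster 4 (0.93, SD 0.28). Both were higher in all 4 libraries.

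The promoters of the genes that part the clusters were searched for 3 motifs on both strands. The E2F motif was any of TTTGGCGC, TTTCCCGC, TTTCGCGC and TTTGCCGC, the site of the factors that switch on replication genes. The CHR motif, TTTGAA, is the cell cycle homology region found in late cell cycle genes, and CCAAT is the box of the NF-Y factor that often stands beside it. The windows ran from 250 bases before to 50 bases after the RefSeq gene start in GRCm38.p6. Of all 27025 promoters, 2.32% held the E2F motif, 18.1% CHR and 37.9% CCAAT. Among the 89 genes lower in cluster 3 than in cluster 4, 69 had a promoter in the table, and 45 (65.2%) held CHR, 46 (66.7%) CCAAT and 5 (7.25%) E2F. The measured genes with a promoter, 4160 of 5223, held the motifs in 12.9%, 39.6% and 5.67%. Of the replication list, 44 of 53 genes had a promoter and 17 (38.6%) held E2F, 6 (13.6%) CHR and 29 (65.9%) CCAAT. Of the mitosis list, 49 of 57 had one and 35 (71.4%) held CHR, 39 (79.6%) CCAAT and 1 (2.04%) E2F, so that CCAAT was frequent in both lists.

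A set of 4 promoters was chosen to show both kinds, on the strand of the gene, with motif matches on either strand in capitals. Some promoters held no match to any of the motifs. These included Nusap1, with the lowest ratio among the named genes, and Ung, with the highest ratio of the replication list. Hells (chr19:38930740-38931039, + strand) and Cdc6 (chr11:98907901-98908200, + strand), a loader of the replicative helicase, each have 1 E2F match. Plk1 (chr7:122159185-122159484, + strand) has 1 CCAAT and 1 CHR match and is low in cluster 3. Ccnb2 (chr9:70421505-70421804, - strand) has 3 CCAAT and 2 CHR matches and is not low in cluster 3.
Hells: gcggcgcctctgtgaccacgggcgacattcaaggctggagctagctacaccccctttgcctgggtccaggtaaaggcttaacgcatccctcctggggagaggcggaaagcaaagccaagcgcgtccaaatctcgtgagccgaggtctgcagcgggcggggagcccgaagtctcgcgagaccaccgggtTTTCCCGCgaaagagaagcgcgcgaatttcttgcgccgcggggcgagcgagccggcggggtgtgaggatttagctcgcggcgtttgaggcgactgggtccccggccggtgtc
Cdc6: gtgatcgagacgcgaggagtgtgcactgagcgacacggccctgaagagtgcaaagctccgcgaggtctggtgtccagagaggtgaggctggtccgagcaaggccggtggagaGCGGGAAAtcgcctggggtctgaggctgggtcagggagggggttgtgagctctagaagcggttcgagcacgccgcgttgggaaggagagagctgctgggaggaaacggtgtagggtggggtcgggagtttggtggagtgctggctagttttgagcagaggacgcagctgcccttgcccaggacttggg
Plk1: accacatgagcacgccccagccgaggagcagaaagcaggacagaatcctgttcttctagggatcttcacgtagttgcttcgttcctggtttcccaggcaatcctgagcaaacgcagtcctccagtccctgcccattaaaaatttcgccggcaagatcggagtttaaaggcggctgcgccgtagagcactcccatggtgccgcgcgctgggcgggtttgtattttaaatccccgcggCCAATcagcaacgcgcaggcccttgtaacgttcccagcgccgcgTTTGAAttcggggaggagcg
Ccnb2: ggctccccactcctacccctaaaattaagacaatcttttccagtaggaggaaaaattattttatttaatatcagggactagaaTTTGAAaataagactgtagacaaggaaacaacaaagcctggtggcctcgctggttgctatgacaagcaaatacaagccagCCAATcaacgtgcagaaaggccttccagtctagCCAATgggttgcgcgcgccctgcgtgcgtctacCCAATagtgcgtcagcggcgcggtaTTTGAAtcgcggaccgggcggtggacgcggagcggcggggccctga
The Ccnb2 promoter thus holds the same motif kinds as that of Plk1, while the RNA of the 2 genes took opposite directions between clusters 3 and 4. A match is a description of the letters in the window and not a bound site.

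Cluster 6, almost all of it DN3, is the other neighbour with many S-called cells, and it could be compared with cluster 3 in the KI DN3 and WT DN3 libraries. Of 5428 measured genes, 52 (0.958%) were 2-fold higher and 120 (2.21%) 2-fold lower in cluster 3 in both. The higher genes were led by genes of mitosis. Ccnb2 was at 220 and 224 CPM in cluster 3 of KI DN3 and WT DN3, against 2.16 and 1.45 CPM in cluster 6 (mean log2 ratio 6.97). Cenpa was at 184 and 170 CPM in cluster 3 and at 6.48 and 9.81 CPM in cluster 6 (4.47). Birc5, survivin, was at 159 and 136 CPM in cluster 3 and at 10.1 and 15.6 CPM in cluster 6 (3.55). Mki67 was at 48.5 and 44.5 CPM in cluster 3 and at 9 and 5.81 CPM in cluster 6 (2.68), so that cluster 3 lay between clusters 6 and 4 for both. By contrast Top2a was at 87.4 and 47.9 CPM in cluster 3 and at 73.8 and 63.2 CPM in cluster 6 and took opposite directions in the 2 libraries. Of the mitosis list 17 of 25 measured genes were 2-fold higher in cluster 3 and 21 were higher in both libraries at any size, where 31.8% of all genes were, with a median of 2.01. Of the replication list 1 of 45 was 2-fold higher, and 31 were higher and 7 lower in both libraries, with a median of 0.20. The other genes with the highest ratios were Cdca3 (4.38), Cenpf (3.47), Ccnb1 (3.28), Knl1 (2.51), Ube2c (2.32) and Ccna2 (2.31), all of mitotic entry, the kinetochore or mitotic protein turnover, and Lockd (3.55), a noncoding RNA next to Cdkn1b.

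Cd8b1 also parted clusters 3 and 6, with 19.4 and 23.4 CPM in cluster 3 and 1.44 and 1.82 CPM in cluster 6 (mean log2 ratio 3.72), and Gzma was at 895 and 977 CPM in cluster 3 and at 174 and 299 CPM in cluster 6 (2.04). Of the pre-TCR response list 11 genes were measured, of which 5 were 2-fold lower and 1, Id3, an inhibitor of E proteins, was 2-fold higher (mean log2 ratio 1.31). At any size 7 were lower and 3 higher in both libraries, and the median was -0.48. Cd5, a brake on receptor signalling, was at 9.30 and 10.0 CPM in cluster 3 of KI DN3 and WT DN3 and at 47.9 and 71.2 CPM in cluster 6 (-2.60). Nkg7, a granule membrane protein, was at 17.8 and 22.8 CPM in cluster 3 and at 218 and 238 CPM in cluster 6 (-3.50). Egr1, an immediate early transcription factor, was at 9.30 and 8.35 CPM in cluster 3 and at 19.8 and 32.3 CPM in cluster 6 (-1.52), and Nab2, its corepressor, had a mean log2 ratio of -3.37. Rgs1 (-3.55), a regulator of G protein signalling, and Cd6 (-2.68), a relative of Cd5, were lower as well. Il2ra, the CD25 chain of the IL-2 receptor, was at 123 and 143 CPM in cluster 3 and at 385 and 382 CPM in cluster 6 (-1.53). Of the T cell receptor complex list 12 of 15 genes were lower in cluster 3 in both libraries (44.5% of all measured genes were), with a median of -0.52.

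Within cluster 3, DN4 cells were then set against DN3 cells of the same genotype. In KI, 48 genes (0.934%) of 5141 were at least 2-fold higher and 35 (0.681%) lower in DN4. In WT, 35 (0.668%) of 5240 were higher and 26 (0.496%) lower. The genotypes shared 16 of the higher genes (33.3% of the KI and 45.7% of the WT list) and 16 of the lower genes (45.7% of the KI and 61.5% of the WT list), and no gene was called in opposite directions. The sorted marker and the coreceptor differed in both genotypes. Il2ra, whose product CD25 was used to sort the cells and which is therefore no finding, was at 4.26 CPM in KI DN4 against 123 CPM in KI DN3 and at 4.87 CPM in WT DN4 against 143 CPM in WT DN3. Cd8b1 was at 191 CPM in KI DN4 against 19.4 CPM in KI DN3 (log2 ratio 3.30, interval 2.89 to 3.74) and at 264 CPM in WT DN4 against 23.4 CPM in WT DN3 (3.50, 3.05 to 3.98).

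Other genes of the double-positive programme were higher in the DN4 cells of cluster 3. Trac, the constant region of the α chain, was at 24.97 CPM in KI DN4 against 7.28 CPM in KI DN3 (1.78) and at 23.04 CPM in WT DN4 against 3.34 CPM in WT DN3 (2.79). Rag1 was at 47.0 CPM in KI DN4 against 25.5 CPM in KI DN3 (0.88) and at 77.1 CPM in WT DN4 against 26.2 CPM in WT DN3 (1.56). Satb1, a chromatin organiser of thymocytes, was at 255 CPM in KI DN4 against 157 CPM in KI DN3 (0.70) and at 360 CPM in WT DN4 against 143 CPM in WT DN3 (1.33). In the coreceptor and double-positive list, intervals lay above 0 for 12 of 18 genes in KI (10.4% of all genes) and for 15 of 19 in WT (9.81% of all genes), below 0 for 3 in KI and 0 in WT, with medians of 0.31 in KI and 0.52 in WT beside all-gene medians of -0.07 and -0.00.

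The shared higher genes also held surface molecules: the tetraspanin Cd81 (log2 ratio 1.14 in KI, 1.25 in WT), the semaphorin receptor Nrp1 (1.22, 1.503), the integrin β2 chain Itgb2 (1.24, 1.02) and the class I-like molecule H2-Q2 (1.95, 2.25), whose reads near-identical relatives can share. Ikzf3, the transcription factor Aiolos, had ratios of 1.17 in KI and 1.27 in WT, and Rmnd5a, of a ubiquitin ligase complex, 2.09 and 2.08. Cd2, an adhesion molecule, was at 18.1 CPM in KI DN4 against 2.02 CPM in KI DN3 and at 27.7 CPM in WT DN4 against 2.23 CPM in WT DN3, and only WT passed the minimum of 20 CPM (3.64, interval 2.24 to 5.53). The other genes with the largest ratios in WT were Glcci1 (2.37), Syt13 (1.84) and Phlda1 (1.83). In KI they were Ccnb1ip1, at 77.4 CPM in DN4 against 4.85 CPM in DN3 (3.996), Esco2 (2.18), Atp5k (1.88), Tubb2a (1.63) and Kif11 (1.45). Ccnb1ip1 went the other way in WT, with 26.6 CPM in DN4 against 49.0 CPM in DN3 (-0.88), which rested in part on the 1 WT DN3 cell described above.

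Among the genes lower in DN4, Bcl2, the survival factor, was at 13.6 CPM in KI DN4 against 30.7 CPM in KI DN3 (-1.18) and at 18.4 CPM in WT DN4 against 39.5 CPM in WT DN3 (-1.10). Il7r, the IL-7 receptor α chain, was at 14.6 CPM in KI DN4 against 27.1 CPM in KI DN3 (-0.89) and at 14.6 CPM in WT DN4 against 40.6 CPM in WT DN3 (-1.47). Transcripts of the γ chain constant regions were lower as well: Tcrg-C1 was at 35.1 CPM in KI DN4 against 135 CPM in KI DN3 (-1.94) and at 42.1 CPM in WT DN4 against 146 CPM in WT DN3 (-1.80), with Tcrg-C2 (-1.71 in KI, -1.27 in WT) and Tcrg-C4 (-2.02, -1.80), whose sequences resemble it, lower too. Myl10, a myosin light chain, was at 72.2 CPM in KI DN4 against 251 CPM in KI DN3 (-1.80) and at 87.3 CPM in WT DN4 against 329.5 CPM in WT DN3 (-1.92). Among the other shared lower genes were Akr1c13 (-2.01, -1.60), H2-Q7 (-2.21, -1.54) and Ifitm2 (-2.29, -1.39), members of families of similar genes, Mcub (-1.48, -1.89), which restrains mitochondrial calcium uptake, and Atp8b4 (-1.51, -1.56). Il2ra, on whose product the cells were sorted, is itself a marker of pre-selection DN3 cells. Any part it has in the next counts follows from the sort. The pre-selection and Notch list had intervals below 0 for 7 of 9 genes in KI (21.7% of all genes) and for 4 of 9 in WT (11.2% of all genes). A pair of its best known members differed little: Ptcra was at 88.9 CPM in KI DN4 against 85.7 CPM in KI DN3 (0.05, interval -0.16 to 0.27) and at 108 CPM in WT DN4 against 107 CPM in WT DN3 (0.01, -0.24 to 0.25), and Notch1 had ratios of -0.28 in KI and -0.34 in WT.

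The comparison of genotypes asked how KI differed from WT within cluster 3. In DN4, 11 genes (0.213%) of 5161 were at least 2-fold higher and 23 (0.446%) lower in KI. With trimmed-mean scaling in place of library totals the split was 16 higher and 17 lower. In DN3, 21 genes (0.402%) of 5229 were higher and 47 (0.899%) lower in KI. No gene was higher in both stages and 10 were lower in both, 43.5% of the DN4 and 21.3% of the DN3 list. Gsk3b (chromosome 16, 38089001 to 38246084), the gene that carries the substitution, was at 60.8 CPM in KI DN4 against 66.2 CPM in WT DN4 (log2 ratio -0.12, interval -0.32 to 0.07) and at 57.8 CPM in KI DN3 against 67.4 CPM in WT DN3 (-0.22, -0.58 to 0.14). The level of a gene does not show a single substitution, so this checks no label.

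The 10 genes lower in KI in both stages included the largest differences. Mid1 (chromosome X, 169685199 to 170005736), a ubiquitin ligase of microtubules, had 11 UMIs in KI DN4 against 205 in WT DN4, or 0.794 against 45.4 CPM (log2 ratio -5.84, interval -6.86 to -4.97). In KI DN3 it had 0 UMIs against 78 in WT DN3, at least 35.8-fold lower with the floor of 3 counts in the KI library. Cd96 (chromosome 16, 46035657 to 46120251), a receptor of T and NK cells, lies on the same chromosome as Gsk3b. The part of sequence linked to the knock-in was not tested. Cd96 was at 1.80 CPM in KI DN4 against 31.0 CPM in WT DN4 (-4.10). In DN3 it was at 2.02 CPM in KI against 27.3 CPM in WT (-3.75). Apobec3, a deaminase that restricts retroviruses, was at 30.8 CPM in KI DN4 against 139 CPM in WT DN4 (-2.17, interval -2.35 to -1.99) and at 31.95 CPM in KI DN3 against 195 CPM in WT DN3 (-2.61, -2.98 to -2.25). These 3 genes were lower in both KI libraries than in either WT library.

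Junb, an AP-1 transcription factor, was at 303 CPM in KI DN4 against 821 CPM in WT DN4 (log2 ratio -1.44) and at 370 CPM in KI DN3 against 787 CPM in WT DN3 (-1.09). Cd47, the surface signal that restrains phagocytes, was at 161 CPM in KI DN4 against 347 CPM in WT DN4 (-1.10) and at 166 CPM in KI DN3 against 357 CPM in WT DN3 (-1.11). Banp, a DNA-binding nuclear protein, was at 12.3 CPM in KI DN4 against 31.7 CPM in WT DN4 (-1.36) and at 11.7 CPM in KI DN3 against 31.7 CPM in WT DN3 (-1.44). The remaining shared genes were Gm47283 and 5830405F06Rik, which have no known role, and the receptor segments Trbv4 and Trdv2-2. When clusters 3 and 4 were joined, Mid1 (-6.21 in DN4, -6.54 in DN3), Cd96 (-4.10, -4.45), Apobec3 (-2.16, -2.52), Junb (-1.19, -1.01) and Banp (-1.15, -1.33) stayed over 2-fold lower in KI, and Cd47 (-0.99, -0.92) came just under that size.

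**Figure D5:**
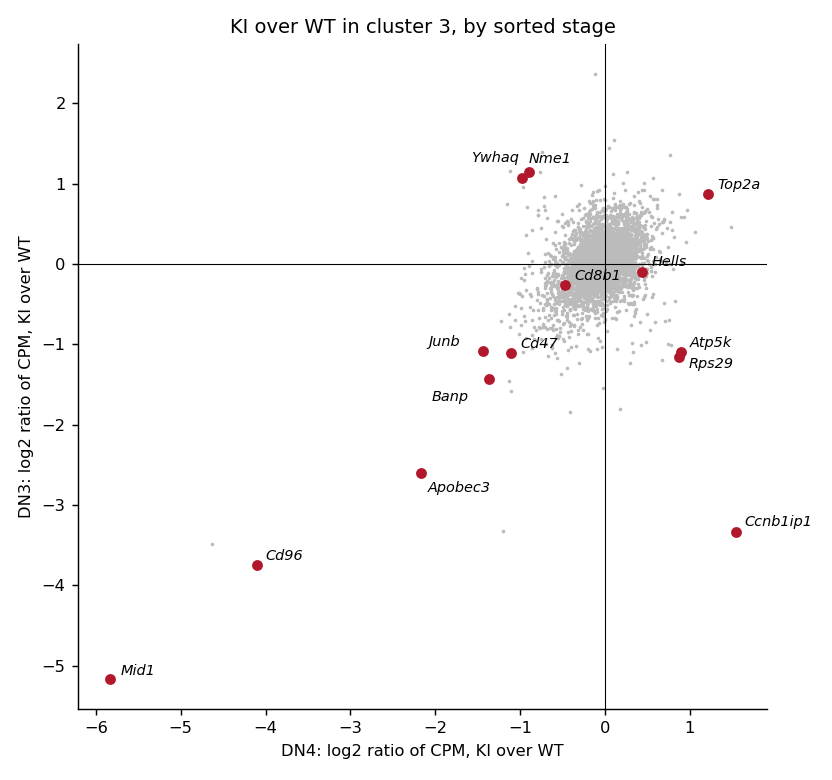
Log2 ratio of CPM, KI over WT, in cluster 3 of DN4 (horizontal) and of DN3 (vertical), for the 4967 genes measured in both stages, with 1 point per gene and named genes in red; Mid1 in DN3 is drawn at its bound. Mid1, Cd96, Apobec3, Junb, Banp and Cd47 lie low in both stages, and Ccnb1ip1 lies at 1.54 in DN4 and -3.34 in DN3.

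Of the mitosis list 4 of 33 measured genes were 2-fold higher in KI DN4 (0.213% of all genes were) and of the replication list 0 of 50. The genes named next were 2-fold higher in KI DN4, and not all of them are on the mitosis list. Esco2 was at 29.3 CPM in KI DN4 against 6.20 CPM in WT DN4 (log2 ratio 2.24, interval 1.69 to 2.85), Aurkb at 42.9 against 14.4 CPM (1.57, 1.20 to 1.97), Top2a at 188 against 80.6 CPM (1.22, 1.06 to 1.38) and Cdca5, the cohesin protector sororin, at 43.4 against 15.5 CPM (1.49, 1.13 to 1.86). Kif11 (1.24), Plk1 (1.06) and Dscc1 (1.06), of a cohesion clamp loader, were also higher. The replication list had intervals above 0 for 37 of 50 genes in KI DN4 (17.5% of all genes) and below 0 for 1, with a median of 0.29, and the mitosis list for 16 and 4, with a median of 0.25. In DN3 the replication list had 17 of 47 genes above 0 (11.6% of all genes) and 0 below, with a median of 0.22.

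These cell cycle differences were not seen at this size when clusters 3 and 4 were joined. In cluster 4, 58.5% of KI DN4 cells had a G2M call, against 37.45% of WT DN4 cells, and Ung was at 29.9 CPM in KI DN4 against 116 CPM in WT DN4. With clusters 3 and 4 joined, Esco2 was at 67.1 CPM in KI DN4 against 57.7 CPM in WT DN4 (log2 ratio 0.22), Aurkb at 127 against 106 CPM (0.27), Top2a at 405 against 352 CPM (0.20) and Cdca5 at 63.7 against 67.8 CPM (-0.09). The count of genes 2-fold higher in KI DN4 then was 3, all of them among the 11: Cd200, Ccnb1ip1 and the unannotated Gm28727. The part that the border between the clusters has in these ratios was not tested. Among S-called cells of cluster 3 alone the ratios of Esco2 (2.44), Aurkb (1.93) and Top2a (1.25) stayed. Cd200 (chromosome 16, 45382135 to 45409053), a membrane ligand that damps myeloid cells, also lies on the chromosome of Gsk3b. In cluster 3 it was at 23.6 CPM in KI DN4 against 3.54 CPM in WT DN4 (2.73, interval 2.01 to 3.56). With the clusters joined its ratio was 3.23. In DN3 Cd200 was at 16.2 CPM in KI against 3.34 CPM in WT, below the minimum of 20 CPM.

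The genes higher in KI DN3 were others. Sys1, of Golgi trafficking, was at 21.0 CPM in KI DN3 against 5.57 CPM in WT DN3 (log2 ratio 1.92), Bcor, a transcriptional corepressor, at 24.3 against 8.91 CPM (1.45) and Cycs, cytochrome c, at 79.3 against 30.1 CPM (1.40). In DN4 the ratios were 0.05 for Bcor and -0.74 for Cycs. The genes lower in KI DN3 included Lypla1, an enzyme that removes palmitate from proteins, at 12.9 CPM in KI DN3 against 33.4 CPM in WT DN3 (-1.37), which in DN4 was at 22.9 CPM in KI against 32.8 CPM in WT (-0.51, interval -0.80 to -0.22), and Irgm1, an interferon-induced GTPase, at 9.30 against 22.8 CPM (-1.29). Ccnb1ip1 was at 4.85 CPM in KI DN3 against 49.0 CPM in WT DN3 (-3.34, interval -4.34 to -2.46), opposite to its ratio in DN4 of 1.54 (1.27 to 1.83).

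Genes of the double-positive programme were lower in KI DN4 than in WT DN4 within cluster 3, though none reached 2-fold. Intervals lay below 0 for 17 of 19 measured genes of the list and above 0 for 0, where 22.1% of all genes lay below 0, and the list's median was -0.46. Other lists leaned the same way: intervals lay below 0 for 6 of 8 pre-selection and Notch genes (median -0.33), 5 of 5 γδ genes (-0.37), 9 of 14 T cell receptor complex genes (-0.14) and 5 of 8 pre-TCR response genes (-0.29), and above 0 for 1 T cell receptor complex gene and 0 of the others. These list counts use library totals. The trimmed-mean factors of cluster 3, 0.961 for KI DN4 and 1.02 for WT DN4, would raise every KI over WT ratio in DN4 slightly. The list counts were not repeated with them, and small medians such as -0.14 are the most open to this. Cd8b1 was at 191 CPM in KI DN4 against 264 CPM in WT DN4 (log2 ratio -0.46, interval -0.56 to -0.36). Rag1 was at 47.0 CPM in KI DN4 against 77.1 CPM in WT DN4 (-0.71). Bcl11b, a factor of T cell commitment, was at 91.3 against 153 CPM (-0.75), and Themis, a signalling protein of positive selection, at 48.8 against 74.2 CPM (-0.61). In the same libraries the G1 call was given to 2.87% of KI DN4 and 9.92% of WT DN4 cells of the cluster. Among S-called cells alone the ratios were -0.53 for Cd8b1, -0.65 for Rag1, -0.74 for Bcl11b and -0.58 for Themis, with all intervals below 0. In DN3 the list had 1 gene above 0 and 5 of 16 below, where 8.01% of all genes lay below 0, with a median of -0.13, and Cd8b1 was at 19.4 CPM in KI DN3 against 23.4 CPM in WT DN3 (-0.27, -0.90 to 0.36).

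Interferon response genes were likewise lower in KI DN4, with intervals below 0 for 8 of 9 genes, where 22.1% of all genes lay below 0, and a median of -0.44. Irf1 was at 60.9 CPM in KI DN4 against 93.5 CPM in WT DN4 (log2 ratio -0.62). Among S-called cells alone the DN4 ratio of Irf1 was -0.55 (interval -0.74 to -0.35). That of Bst2 was only -0.07 in these cells, with an interval that reached 0 (-0.18 to 0.04). The list was not counted in S-called cells, so its drop is not shown at a matched phase. In DN3 3 of the 9 lay above 0 (11.6% of all genes) and 2 below (8.01% of all genes), and Isg15, a ubiquitin-like protein, was at 28.3 CPM in KI DN3 against 59.6 CPM in WT DN3 (-1.07). The GSK3 and β-catenin list had no interval apart from 0 in DN4 (6 genes, median -0.14). Of its 7 genes in DN3, Btrc, the adaptor of the ubiquitin ligase that degrades phosphorylated β-catenin, was at 21.8 CPM in KI DN3 against 9.46 CPM in WT DN3 (1.21, interval 0.40 to 2.09). Ctnnb1, β-catenin itself, had ratios of -0.13 in DN4 and -0.04 in DN3, with intervals that reached 0.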

How the data were processed

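Each group had 1 10x 5′ expression library and 1 receptor library. The authors deposited raw UMI counts for 15653 genes in 10237 cells, with a library, cluster number and cell cycle phase call per cell, and UMI counts per assembled receptor contig. The submitters' processing notes name Cell Ranger 3.1.0 and 6.0.1 and the build mm10, and the filters on cells and genes, the clustering and the phase calling are not given in the sources used here. The members and gene lists were chosen with earlier results of these data known.

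UMIs were summed over the cells of a cluster in a library and scaled to counts per 1000000 UMIs (CPM). Genes at 20 CPM or more in either group were measured; a ratio counted as higher or lower at 2-fold, in every library (clusters) or with a 95% conditional binomial interval apart from 0 (genotypes and stages). For cluster ratios the mean over libraries had to reach 20 CPM in 1 cluster. A gene without UMIs was set at a floor of 3 counts in its library. Genes were named by rank: the 12 highest and lowest ratios between clusters, the 8 highest and lowest between genotypes or stages, shared calls, list members and markers, leaving out receptor, ribosomal protein, histone and unnamed genes. Near-identical genes can share reads. Shares of cells with a UMI were compared after thinning to 4000 UMIs, which left out 9 cluster 3 cells. Shallower clusters lost more. In cluster 5, 179 of 328 KI DN4 and 137 of 324 WT DN4 cells were left out. The same held for 685 of 2415 KI DN3 cells of cluster 0 and 262 of 2146 WT DN3 cells of cluster 1. Doublets were called with Scrublet in scanpy 1.11.5 and kept; the alternatives leave them out. The edgeR 4.0.16 package gave trimmed-mean (TMM) scaling factors only. The ratio rules were tested on simulated data. A model of genotype and stage together was not fitted. Positions are those of GENCODE vM21 on mm10, and promoters are RefSeq, GRCm38.p6. Python 3.11.15 and R 4.3.3 were used. Some genes are not reported here.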

Additional observations from a re-analysis of the deposited data

Results flagged for a closer look

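In 10 of the 4967 genes measured in cluster 3 of both stages, the KI over WT ratio took opposite directions in DN4 and DN3 with the near end of each interval past 1.5-fold. Each stage has 1 library per genotype, so the difference between the stages was not tested. Of the 10 genes, 5 were higher in KI DN4 and lower in KI DN3 and 5 the reverse, and all 10 had the same directions in cluster 4. For Ccnb1ip1 the cluster 4 ratios were 2.15 in DN4 and only -0.13 in DN3, with 7.10 CPM in KI DN3 and 7.80 CPM in WT DN3. In cluster 3 Ccnb1ip1 had log2 ratios of 1.54 in DN4 and -3.34 in DN3. Atp5k, a subunit of the mitochondrial ATP synthase, had 0.90 in DN4 and -1.10 in DN3, with 439 CPM in KI DN4, 235 CPM in WT DN4, 119 CPM in KI DN3 and 255 CPM in WT DN3. Nme1, a nucleoside diphosphate kinase, had -0.98 in DN4 and 1.07 in DN3, with 107, 211, 322 and 153 CPM in the same order. Ywhaq, a 14-3-3 protein, had -0.90 in DN4 and 1.14 in DN3, and Erh had -0.76 in DN4 and 1.14 in DN3. The other 5 genes code for ribosomal proteins, whose reads processed copies can share: Rps29 had 0.88 in DN4 and -1.15 in DN3, Rpl38 0.78 and -1.01, Rps28 0.74 and -1.0003, Rpl21 -0.96 and 0.96, and Rps7 -0.91 and 0.71.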

How the results depend on the processing

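A lower minimum level admits more genes. At 5 CPM the genes higher and lower between clusters 3 and 4 numbered 4 and 118, KI over WT 30 and 102 in DN4 and 88 and 148 in DN3, and DN4 over DN3 135 and 128 in KI and 152 and 124 in WT. With S-called cells alone clusters 3 and 4 parted by 3 higher and 59 lower genes, and 32 genes were higher in KI DN3; the cause was not tested. Leaving out 1 library each gave 1 to 2 higher genes (2 without KI DN3), 91 to 108 lower genes and an S phase difference of 21.1 to 31.5 points. It gave a TRB difference of -0.155 to 2.91 points (-0.0092 without KI DN3) and a TRA difference of -0.173 to 0.219 points, which was -0.394 without doublet calls. With clusters 3 and 4 joined, an alternative chosen after seeing the data, 3 genes were higher in KI DN4, 7 higher and 30 lower in KI DN3, and 23 higher in WT DN4 than in WT DN3. Joined, 4 single-gene ratios changed sign: KI over WT in DN4 for Cdca5 (-0.090), DN4 over DN3 in KI for Esco2 (-0.0089) and Kif11 (-0.16), and DN4 over DN3 in WT for Ccnb1ip1 (0.033); the cause was not tested. Of 600 single-gene values under alternatives, 558 stayed within the SD or interval of the reported value and 38 moved outside it. TMM scaling, doublet removal and cells of 4000 or more UMIs kept all 89 genes lower in cluster 3 than in cluster 4. No paired analysis of genotypes or stages was possible because the groups share only 1 replicate number, and a fit of genotype with stage as a block was not run. Clusters 3 and 4 were compared within each library. Depth limits the DN3 comparisons, with 138 KI DN3 and 96 WT DN3 cells.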

Other observations

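A small number of cluster 3 cells had neither an S nor a G2M call. G1 was called for 22 KI DN4 and 24 WT DN4 cells, with medians of 11752 and 10496 UMIs, and their summed profile was set beside that of the S-called cells of the same libraries. The phase calls come from these same genes, so the values describe the cells and carry no test. Of 3533 genes at 50 CPM or more, 158 were 2-fold higher and 230 2-fold lower in G1 in both libraries with intervals apart from 0. Pclaf, a PCNA partner in replication, was at 11.9 and 3.74 CPM in the G1-called KI DN4 and WT DN4 cells and at 682 and 464 CPM in the S-called KI DN4 and WT DN4 cells. Rrm2 and Cdc6 had 0 UMIs in the G1-called cells of both libraries. Some of the higher genes are given here, chosen after their values were seen. Mxd4 was at 270 and 273 CPM in the G1-called KI DN4 and WT DN4 cells and at 38.9 and 62.7 CPM in the S-called ones, Ypel3, linked to growth arrest, at 182 and 180 CPM in G1 and at 32.1 and 35.9 CPM in S, and Btg1, an antiproliferative factor, at 107 and 187 CPM in G1 and at 28.7 and 41.6 CPM in S. Ccr9, the receptor for the chemokine CCL25, was at 206 and 187 CPM in G1 and at 43.7 and 63.6 CPM in S. Cd8b1 was at 444 and 487 CPM in G1 and at 179 and 258 CPM in S, with a log2 ratio under 1 in WT. All of these genes were higher in G1 in both libraries.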
